A study of Mus musculus with 12 samples.

Results

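Bone marrow of mice carrying transplanted T-lineage acute lymphoblastic leukemia (T-ALL, a malignancy of T-cell precursors) was examined for 9 genes of the B lineage: Ebf1, Pax5, Cd79a, Cd79b, Ms4a1, Vpreb1, Igll1, Ighm and Sdc1. They were chosen by gene symbol, and all 9 had 1 row each among the 38339 genes of the deposited table. Their levels were read in 6 moribund mice given dexamethasone (DEX, a synthetic glucocorticoid) and 6 given vehicle (VEH), all killed 4 hours after treatment. Each of 6 primary leukemias, on a C57BL/6 x 129Sv/Jae F1 background, gave 1 DEX and 1 VEH recipient. Leukemia 1 has the code 73A-46B and leukemia 2 the code 73M-19A, leukemia 3 is 78A-143B, leukemia 4 is 2M-127B, leukemia 5 is 20M-116B, and leukemia 6 is JW-81-59B. Red cells were lysed and total RNA of the whole marrow was sequenced without sorting, so the libraries hold leukemic cells together with whatever marrow cells of the recipient remained. The genotype of the recipients was not given in the sources used here.

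B cells arise in the marrow from lymphoid progenitors. Ebf1 and Pax5 encode the transcription factors that specify and then commit cells to this lineage. Precursor B cells carry a receptor made of the mu heavy chain (Ighm) and a surrogate light chain (Vpreb1 with Igll1), which signals through Cd79a and Cd79b. Later cells carry CD20 (Ms4a1), and plasma cells are recognised by syndecan-1 (Sdc1). Glucocorticoids are known to deplete B-cell precursors as well as thymocytes.

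On GRCm38, with GENCODE M21 spans, Cd79a lies at chr7:24897381-24902197, Cd79b at chr11:106311341-106314762, Ebf1 at chr11:44617317-45008091 and Pax5 at chr4:44524757-44710487. Ms4a1 lies at chr19:11249675-11266241, Vpreb1 at chr16:16868403-16870843 and Igll1 at chr16:16860671-16863985, close to each other. Ighm lies at chr12:113418558-113422730 and Sdc1 at chr12:8771323-8793715. All 9 are annotated as protein coding genes except Ighm, an immunoglobulin constant gene.

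Promoter sequence is shown for 3 members whose levels behaved differently: Cd79a, which stood high in 2 leukemias, Igll1, which was near 0 throughout, and Sdc1, which was lower with DEX in every leukemia. RefSeq promoters (GRCm38.p6) were at hand for 6 of the 9 members. The 250 bases before the RefSeq start are given 5′ to 3′ on the gene's strand, and capitals mark every match, on either strand, to CCCNNGGG, the core of the motif bound by EBF1.
Cd79a, chr7:24897247-24897496, plus strand: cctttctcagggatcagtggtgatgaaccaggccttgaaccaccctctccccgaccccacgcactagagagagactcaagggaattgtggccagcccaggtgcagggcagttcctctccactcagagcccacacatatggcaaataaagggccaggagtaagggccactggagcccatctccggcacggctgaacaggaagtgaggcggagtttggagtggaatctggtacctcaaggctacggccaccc
Igll1, chr16:16863986-16864235, minus strand: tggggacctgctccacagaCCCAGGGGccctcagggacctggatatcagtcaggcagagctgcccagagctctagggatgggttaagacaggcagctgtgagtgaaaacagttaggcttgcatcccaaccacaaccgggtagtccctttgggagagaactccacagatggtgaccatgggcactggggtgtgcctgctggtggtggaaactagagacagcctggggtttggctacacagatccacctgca
Sdc1, chr12:8771146-8771395, plus strand: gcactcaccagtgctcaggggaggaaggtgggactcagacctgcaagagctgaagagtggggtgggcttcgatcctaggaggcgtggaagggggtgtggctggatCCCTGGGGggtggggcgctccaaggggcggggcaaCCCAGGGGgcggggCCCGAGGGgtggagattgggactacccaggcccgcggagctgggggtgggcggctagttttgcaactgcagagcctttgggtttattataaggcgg
The motif matched 1 time before Igll1, 3 times before Sdc1, with no match before Cd79a, Ebf1, Pax5 or Vpreb1. It was present in 11.8% of 32851 promoter windows of this length. The octamer ATTTGCAT, a motif of immunoglobulin promoters, was in none of the members' windows and in 1.6% of all windows. A match is a string of letters and no measured binding site. Near matches are not marked, for example ctcaaggg in the Cd79a window, so a window with no match may still hold a site.

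The values were FPKM (fragments scaled by gene length and by the library's mapped fragments) made by the authors, so levels may be compared between genes per length. They summed to 1466471 to 2019058 per library, and 11778 to 12970 genes reached 1 FPKM. Depth was judged from sparse short genes, taking their most common length-scaled value as that of 1 fragment. By this, about 11700000 to 36700000 fragments stood behind 11 of the libraries. There, 1 fragment in 1000 bases is worth 0.0273 to 0.0854 FPKM. In the VEH library of leukemia 2 these length-scaled values were too spread to read a depth. Levels of a few hundredths of an FPKM thus rest on very few fragments. The drug response itself was present: Fkbp5, a classic glucocorticoid target, averaged 633 ± 78.2 FPKM in DEX and 305 ± 47.9 FPKM in VEH (SD, n = 6 each). T-cell identity was plain in every library by genes of the T-cell receptor complex. Cd3e, a chain of that complex, lay at 64.5 to 114 FPKM in DEX and 72.1 to 102 FPKM in VEH. Trbc2 was at least 701 FPKM in DEX and 668 FPKM in VEH. Not every T-cell marker was high throughout. In leukemia 6, Cd8a had 0.3 FPKM in DEX and 0.5 FPKM in VEH, and Cd4 had 2.07 and 3.48 FPKM.

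One library stood apart on B-lineage genes and is named before the results that rest on it. The VEH library of leukemia 2 was the highest of 12 for Ebf1, Pax5, Cd79a, Cd79b, Ms4a1, Igll1 and Ighm, while its T-cell marker sum (2956 FPKM over 12 genes) lay within the range of the others (2124 to 4813 FPKM). Results are therefore given with and without leukemia 2.

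The B-cell identity genes among the members (Ebf1, Pax5, Cd79a, Cd79b and Ms4a1) were detected most clearly in 2 of the 6 leukemias and were low in the other 4. Cd79a, which encodes the signalling chain Ig-alpha, had 0.87 FPKM in DEX and 2.54 FPKM in VEH marrow of leukemia 1, and 1.29 FPKM in DEX and 9.68 FPKM in VEH marrow of leukemia 2. In leukemias 3 to 6 it lay between 0.22 and 0.44 FPKM. As the 2 leukemias were named from these same levels, their separation from the other 4 for Cd79a is a description and no test.

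Of the transcription factors, Ebf1 had 0.03, 0.18 and 0.84 FPKM in DEX (lowest, median, highest of 6) and 0.02, 0.085 and 4.53 FPKM in VEH. Pax5 had 0, 0.06 and 0.96 FPKM in DEX and 0.01, 0.125 and 5.14 FPKM in VEH, and it was listed at 0 in the DEX libraries of leukemias 3 and 6. Both were highest in the VEH marrow of leukemia 2 and next in that of leukemia 1, and the ranges of DEX and VEH overlapped. In leukemia 2 the DEX level was 0.0728 times the VEH level for Ebf1 and 0.187 times for Pax5, and in leukemia 1 it was 0.522 and 0.162 times. Ebf1 in leukemia 3 went the other way, at 0.28 FPKM in DEX and 0.05 FPKM in VEH.

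The other receptor chain and CD20 showed the same 2 leukemias. Cd79b (Ig-beta) had 0.47, 0.845 and 3.53 FPKM in DEX (lowest, median, highest) and 0.42, 0.92 and 18.0 FPKM in VEH. It was the most abundant of the 5 identity genes in 12 of 12 libraries by its FPKM. Ms4a1 had 0.03, 0.1 and 1.11 FPKM in DEX and 0.01, 0.345 and 7.41 FPKM in VEH. For both genes the 3 highest libraries were VEH of leukemia 2, VEH of leukemia 1 and DEX of leukemia 2. In leukemia 2 the DEX level was 0.196 times the VEH level for Cd79b and 0.150 times for Ms4a1.

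**Figure D1:**
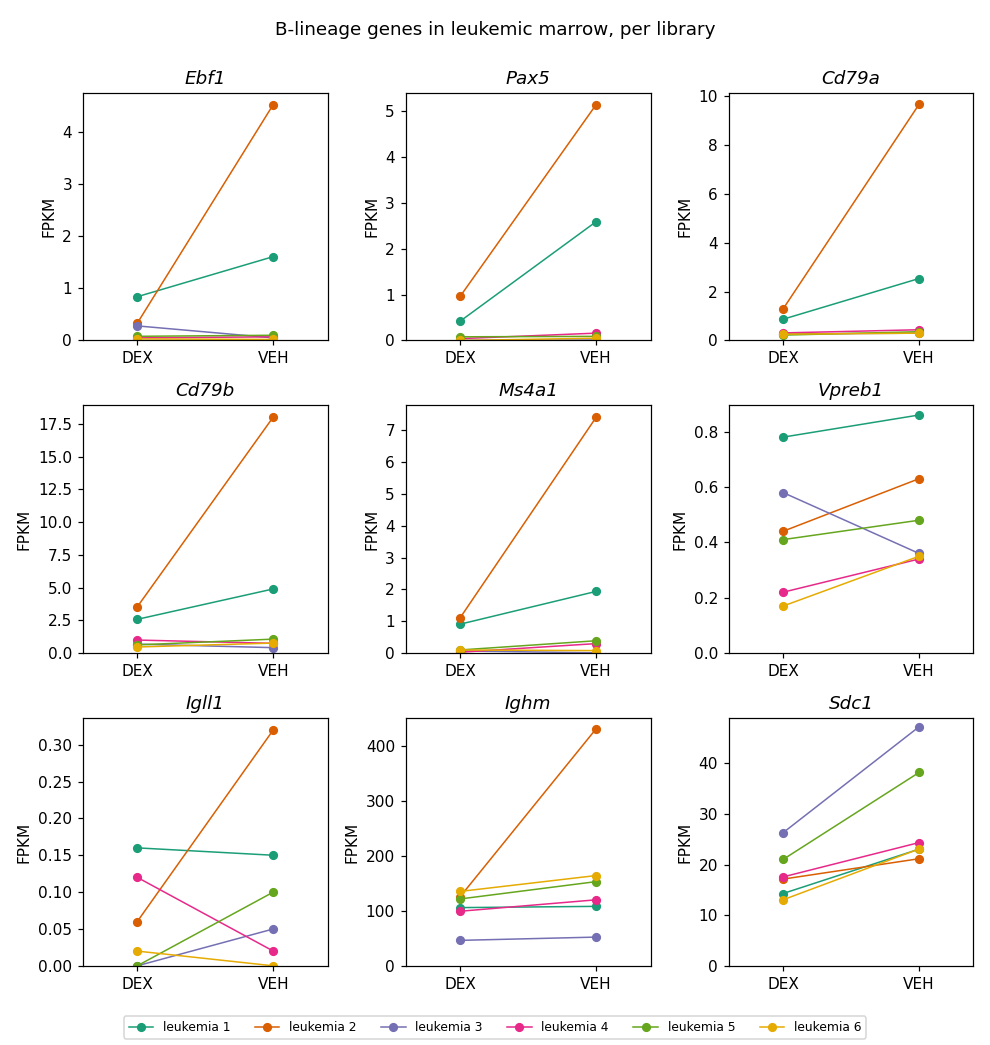
FPKM of each of the 9 genes in every library, DEX at left and VEH at right, with the 2 libraries of a leukemia joined by a line in its colour and a separate y axis per gene. Ebf1, Pax5, Cd79a, Cd79b and Ms4a1 rise above the floor in leukemias 1 and 2, Ighm stands high in the VEH library of leukemia 2 (432 FPKM), and Sdc1 is lower with DEX in all 6 leukemias.

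The surrogate light chain genes stayed low in all 12 libraries, and for both the 3 highest libraries were from leukemias 1 and 2. Vpreb1 had 0.17, 0.425 and 0.78 FPKM in DEX (lowest, median, highest) and 0.34, 0.42 and 0.86 FPKM in VEH, with its highest value in the VEH marrow of leukemia 1 and not of leukemia 2 (0.63 FPKM). Igll1, which encodes the lambda5 protein, reached 0.16 FPKM in DEX and 0.32 FPKM in VEH, and was listed at 0 in 3 of 12 libraries. Neither gene reached 1 FPKM in any library. Vpreb1 has a near copy, Vpreb2, which was listed at 0 FPKM in all 12 libraries. Their GENCODE transcripts share 233 windows of 50 bases, which is 18.8% of those of Vpreb1 and 32.8% of those of Vpreb2, so how reads were divided between them affects the Vpreb1 value. Vpreb3, a related gene of B precursors and mature B cells, was highest in the VEH library of leukemia 2. It had 0.77 and 4.05 FPKM (DEX and VEH) in leukemia 1 and 1.73 and 10.6 FPKM in leukemia 2. DEX marrow of leukemia 5 (1.23 FPKM) lay above that of leukemia 1.

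Ighm, the constant region gene of the mu heavy chain, was abundant in every library, including those where Cd79a was near the floor. It had 46.4, 114 and 135 FPKM in DEX (lowest, median, highest) and 52.3, 137 and 432 FPKM in VEH. Leukemia 3 was lowest in both treatments, at 46.4 FPKM in DEX and 52.3 FPKM in VEH, and the ranges of DEX and VEH overlapped. In leukemia 6, where Cd79a was 0.26 FPKM in DEX and 0.30 FPKM in VEH, Ighm was 135 and 164 FPKM. The table does not separate constant region transcripts that carry a rearranged V gene from those that do not. Igkc, the kappa light chain constant gene, had 81.0 ± 26.8 FPKM in DEX and 149 ± 164 FPKM in VEH (SD, n = 6 each), with 97.4 and 473 FPKM (DEX and VEH) in leukemia 2. Jchain, the joining chain of secreted antibody, had 14.8 and 50.2 FPKM (DEX and VEH) in leukemia 2, and 7.29 to 14.4 FPKM in DEX and 5.97 to 24.6 FPKM in VEH of the other 5.

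Heavy chain V genes (Ighv), read after the levels above had been seen, were spread over many segments. In leukemia 2, 34 of 104 Ighv genes reached 1 FPKM in DEX and 64 in VEH, and in leukemia 3, which was lowest, 12 did in DEX and 9 in VEH. The highest Ighv gene held 4.79% to 11.5% of the summed Ighv FPKM in DEX libraries and 6.01% to 16.8% in VEH libraries. Among the 21 T-cell receptor beta V genes, fewer than the Ighv genes, the highest held 61.2% to 94.2% of the Trbv sum in DEX and 55.0% to 91.8% in VEH. Of 97 kappa V genes (Igkv), the highest held 8.29% to 12.4% of their sum in DEX and 6.96% to 13.6% in VEH. Of only 3 lambda V genes (Iglv), the highest held 71.6% to 100% in DEX and 58.4% to 94.7% in VEH. Reads of related V genes can be split between copies, which affects these shares.

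Sdc1, the syndecan-1 gene, was highest in other leukemias than the receptor genes. It was well above the floor in every library, at 13.1, 17.4 and 26.3 FPKM in DEX (lowest, median, highest) and 21.2, 23.7 and 47.3 FPKM in VEH. The highest levels were in leukemias 3 (26.3 FPKM in DEX, 47.3 FPKM in VEH) and 5 (21.0 and 38.2 FPKM), where Cd79a was near the floor. DEX was below VEH in 6 of 6 leukemias, by 0.550 to 0.810 times, although the 2 ranges overlapped. The plasma cell genes Tnfrsf17 (0 to 0.15 FPKM in DEX, 0.04 to 0.12 FPKM in VEH) and Mzb1 (0.33 to 2.48 FPKM in DEX, 0.43 to 5.10 FPKM in VEH) were lower than Sdc1 in every library, while others of the plasma cell list were abundant, such as Igha (29.1 to 61.9 FPKM in DEX, 29.3 to 69.7 FPKM in VEH) and Xbp1 (18.9 to 42.4 FPKM in DEX, 19.8 to 39.3 FPKM in VEH). Of the other syndecans, Sdc4 was also highest in leukemia 3 (47.2 FPKM in DEX, 57.5 FPKM in VEH), and next in leukemia 5 (37.6 and 39.7 FPKM).

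**Figure D2:**
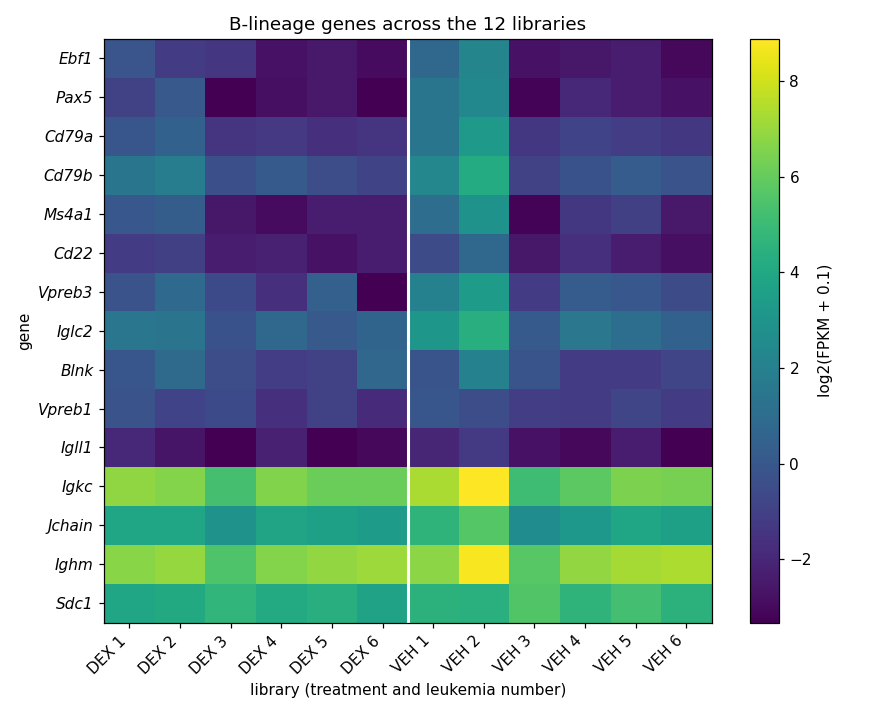
Level of 15 B-lineage genes, given as log2(FPKM + 0.1) by colour, in the 6 DEX libraries (left of the white line) and 6 VEH libraries (right), numbered by leukemia. The identity genes from Ebf1 to Cd22 are, within each treatment, brightest in leukemias 1 and 2, Igkc and Ighm are bright in every column, and Sdc1 is brightest in VEH of leukemia 3 (47.3 FPKM).

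By VEH median, the order per length was Ighm, Sdc1, Cd79b, Vpreb1, Cd79a, Ms4a1, Pax5, Ebf1 and Igll1, and by DEX median Ighm, Sdc1, Cd79b, Vpreb1, Cd79a, Ebf1, Ms4a1, Pax5 and Igll1. Ighm did not overlap with Sdc1 in DEX (lowest Ighm 46.4, highest Sdc1 26.3 FPKM) or in VEH (52.3 and 47.3 FPKM), and Sdc1 did not overlap with Cd79b. From Cd79b down, each gene's range overlapped with that of its neighbour.

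The change with dexamethasone was tested across all genes with limma on log2(FPKM + 1), with leukemia as a block. Only genes with at least 1 FPKM in at least 6 of 12 libraries entered, which 3 of the 9 members did. Of these, Sdc1 fell and Cd79b and Ighm did not pass at an adjusted p under 0.05 in limma, with 0 members higher. At an unadjusted p under 0.05, 0 were higher and 2 lower. The share of all genes at an unadjusted p was not taken, so such counts, here and below, have no background to be set against. Among all 12358 genes tested, 9.28% were lower and 4.27% higher with DEX at an adjusted p under 0.05. The median log2 difference of all tested genes was -0.05, and that of the 3 members -0.49. With the mean FPKM at 18.2 ± 4.84 in DEX and 29.5 ± 10.7 in VEH (SD, n = 6 each), Sdc1 had a log2 difference of -0.64 ± 0.09 (SE; limma adjusted p = 0.0038), lower in 6 of 6 leukemias. The call ended without the block (adjusted p = 0.234) and in leukemias 2, 5 and 6 alone (-0.63, adjusted p = 0.0581), and it held when any 1 leukemia was left out.

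Ighm averaged 106 ± 32.0 FPKM in DEX and 172 ± 133 FPKM in VEH (SD, n = 6 each) and was lower with DEX in 6 of 6 leukemias. Its log2 difference was -0.48 ± 0.20 (SE; limma adjusted p = 0.152), and -0.22 without leukemia 2 (adjusted p = 0.0828). Cd79b averaged 1.48 ± 1.27 FPKM in DEX and 4.32 ± 6.92 FPKM in VEH, at a log2 difference of -0.49 ± 0.27 (limma adjusted p = 0.2605), and at -0.18 without leukemia 2 (adjusted p = 0.542). Much of both mean differences thus came from 1 pair of mice. Leukemia 2 moved by -1.77 for Ighm and -2.07 for Cd79b, against -0.33 to -0.03 and -0.72 to 0.25 in the others.

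With the looser filter of 0.1 FPKM in at least 6 libraries, 7 members among 16950 genes could be tested, and 1 was lower (Sdc1, adjusted p = 0.00646), against 5.59% of all genes lower and 2.88% higher. No member was higher (0 also at an unadjusted p under 0.05). Cd79a was lower with DEX in 6 of 6 leukemias, at a log2 difference of -0.59 ± 0.28 (SE; limma adjusted p = 0.2305), and at -0.26 without leukemia 2 (adjusted p = 0.328). Ms4a1 stood at -0.53 ± 0.25 (adjusted p = 0.2204; -0.24 and adjusted p = 0.2701 without leukemia 2), and Ebf1 at -0.39 ± 0.27 (adjusted p = 0.415; -0.05 and adjusted p = 0.8301 without it). Vpreb1 stood at -0.07 ± 0.07 (adjusted p = 0.578). Pax5 and Igll1 entered only with no filter on low values, at -0.54 ± 0.26 (adjusted p = 0.362) and -0.06 ± 0.06 (adjusted p = 0.617). For genes this low, the pseudocount of 1 shrinks the fold change. With a pseudocount of 0.1, added after seeing the data, Cd79a stood at -0.91 (adjusted p = 0.165), Ms4a1 at -0.96 (adjusted p = 0.187), Ebf1 at -0.53 (adjusted p = 0.574) and Vpreb1 at -0.23 (adjusted p = 0.558). Cd79a, Pax5, Ighm and Sdc1 were lower with DEX in all 6 leukemias. Of the 7 members among the 16950 genes these were 3, against 10.8% of those genes, and of the 3 among the 12358 they were 2, against 13.7%. For Cd79a and Pax5 in leukemias 3 to 6 the differences were -0.16 to -0.01, at levels of few fragments. In bulk marrow, fewer B-lineage cells and less RNA of these genes per cell cannot be told apart.

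**Figure D3:**
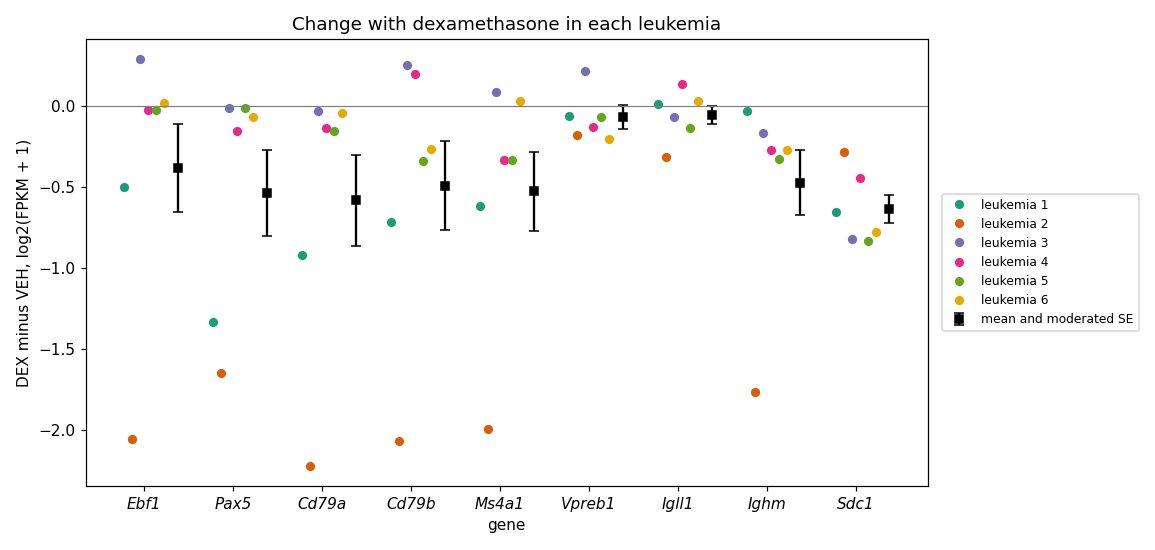
Difference of log2(FPKM + 1), DEX minus VEH, for each gene in each leukemia (coloured dots) and their mean with its moderated SE (black squares; from the looser filter for Cd79a, Ms4a1, Ebf1 and Vpreb1, and from no filter for Pax5 and Igll1). Leukemia 2 lies lowest for 7 of the 9 genes, down to -2.22 for Cd79a, while for Sdc1 it has the smallest change (-0.29).

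The members also differed between leukemias. By an F test for leukemia in this limma model, 3 of 3 tested members passed (Cd79b, adjusted p = 0.00791; Ighm, adjusted p = 0.0105; Sdc1, adjusted p = 0.0036), against 51.1% of all genes. Their leukemia means spanned 2.58, 2.22 and 0.98 on the log2 scale. For Ighm the call rested on leukemia 3, without which the span was 1.12 (adjusted p = 0.128), and it ended in leukemias 2, 5 and 6 alone (0.77, adjusted p = 0.179) and with no filter on low values (adjusted p = 0.0573). With the looser filter, 5 of 7 members passed (Cd79a, Cd79b, Ms4a1, Ighm and Sdc1), against 43.1% of all genes, while Ebf1 (adjusted p = 0.1001) and Vpreb1 (adjusted p = 0.0573) did not. Without leukemia 2, whose 2 mice were far apart, 7 of 7 passed with that filter. The filter favours a difference in a low gene that passes it through the leukemias where it is high. These counts therefore describe the members and support nothing.

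The sum of the erythroid list was highest in the same leukemias as the B-cell identity genes. The erythroid list (11 genes, mainly globins and red cell membrane proteins) summed to 153 FPKM in DEX and 1213 FPKM in VEH of leukemia 2, and to 90.5 and 334 FPKM in leukemia 1. In leukemias 3 to 6 it summed to 17.1 to 38.9 FPKM in DEX and 10.4 to 51.4 FPKM in VEH. By this sum the VEH library of leukemia 2 was again the highest of 12. The globin genes followed the sum, but not every gene of the list did. Epor was highest in leukemia 6 (13.1 FPKM in DEX, 10.3 FPKM in VEH). Car1 was highest in leukemia 5 in DEX (2.7 FPKM), though in leukemia 2 in VEH (30.9 FPKM). The granulocyte and monocyte list (14 genes) was highest in leukemia 1 (5363 FPKM in DEX, 9183 FPKM in VEH), and in leukemia 2 it summed to 1639 FPKM in DEX and 4634 FPKM in VEH, against 1489 to 3337 FPKM in DEX and 2316 to 3824 FPKM in VEH of the others. The beta-globin gene Hbb-bt and the granulocyte gene Elane were above 0 in all 12 libraries. The plasmacytoid dendritic list (8 genes) was instead highest in leukemia 3 (954 FPKM in DEX, 1199 FPKM in VEH) and the NK list (7 genes) in leukemia 4 (397 and 642 FPKM). The stroma and endothelium list (10 genes) summed to 46.5 to 58.5 FPKM in DEX and 58.7 to 67.8 FPKM in VEH. The part of these lists in the B-lineage differences was not tested.

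The test across genes called 0 of 6 tested erythroid genes in either direction (0 also at an unadjusted p under 0.05), and 3 of 14 granulocyte and monocyte genes lower (Ltf, Itgam and Cybb), against 9.28% of all genes. With the looser filter 1 of the 14 (Ltf) was lower, against 5.59% of all genes. At an unadjusted p under 0.05 in limma 8 were lower, but the share of all genes at that threshold was not taken.

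**Figure D4:**
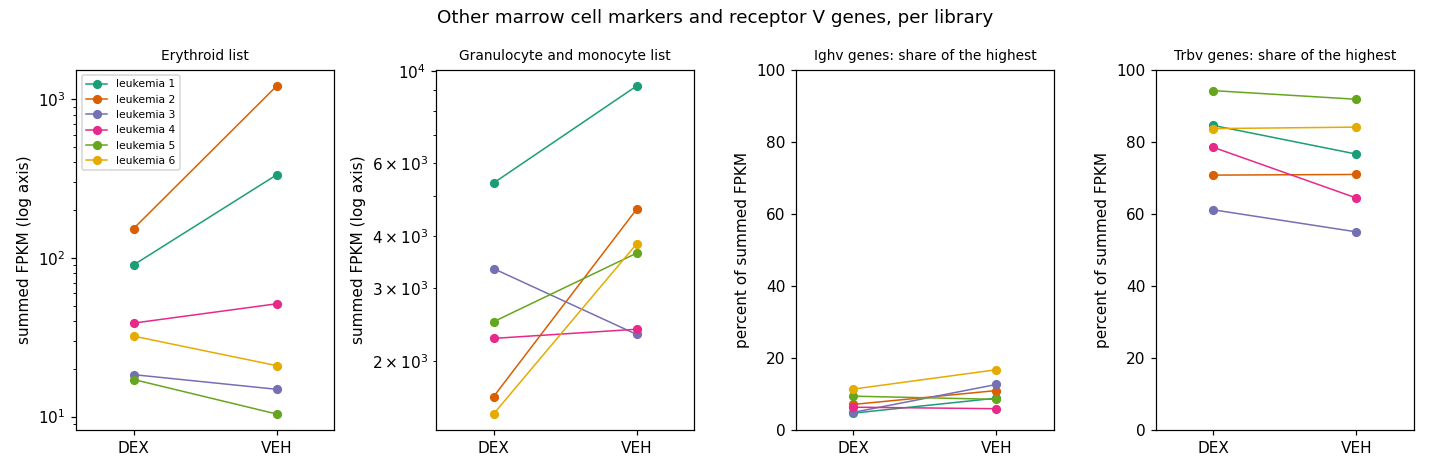
Summed FPKM of the erythroid and of the granulocyte and monocyte lists (log axes), and the percent of the Ighv and Trbv sums held by the highest gene, in DEX (left) and VEH (right) libraries, with the pair of each leukemia joined. The erythroid sum reaches 1213 FPKM in VEH of leukemia 2, and the highest Trbv gene holds at least 55.0% of its sum while the highest Ighv gene holds at most 16.8%.

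Likeness over the 12 libraries was measured by Pearson's r of log2(FPKM + 0.1) among 15091 genes, as a description only, since the points share leukemia, library and depth. Among the closest to Cd79a were Tmcc2 (0.984), Scd1 (0.981), the beta-globin gene Hbb-bt (0.968) and Slc4a1, the anion exchanger of red cells (0.956). Scd1 was among the closest to Pax5 and Ms4a1 as well (0.967 and 0.972). Hbb-bt had 10.3 FPKM in DEX and 129 FPKM in VEH of leukemia 2, so Hbb-bt and Cd79a shared their highest library. Ebf1 was nearest to Tifa (0.945), and Ighm to Igkv8-24 (0.944) and Ighv4-1 (0.926), both immunoglobulin V genes. Vpreb1 was nearest to Lrrk2 (0.936), and Igll1 to Igkv6-32 (0.931). Sdc1 was nearest to Srsf6 and Agrn (0.892 each), with no B-lineage gene of the lists among its 5. The same held for Ighm, Vpreb1 and Igll1, though V genes were not part of the lists. Between members, r was 0.974 for Cd79a with Cd79b, 0.970 for Cd79a with Pax5, 0.629 for Cd79a with Ighm and -0.16 for Cd79a with Sdc1.

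Other B-lineage genes were read from 3 lists. Of 18 genes used by B precursors, 14 were tested, 0 rose, 6 fell and 8 did not pass, at a median of -0.39 against -0.05 for all tested genes, of which 9.28% were lower. With the looser filter 5 fell, and Arpp21 did not pass (adjusted p = 0.0673). The 6 were Dntt (-0.70), which encodes terminal transferase, the surface glycoprotein gene Cd24a (-0.88), the transcription factor genes Sox4 (-0.74) and Myb (-0.57), Cd93 (-0.59) and Arpp21 (-0.48). All 6 are also genes of immature T cells or other progenitors, and each averaged at least 12.2 FPKM in DEX, far above Cd79a. Of 27 mature B-cell genes in the table, 13 were tested, with 0 higher and 0 lower in limma (at an unadjusted p under 0.05, 0 higher and 3 lower), at a median of -0.09. Of 16 plasma cell genes, 11 were tested, 0 rose, 1 fell and 10 did not pass, a share near the 9.28% of all genes. The 1 that fell was Irf4, a transcription factor of activated lymphocytes and plasma cells, at 0.633 ± 0.269 FPKM in DEX and 1.97 ± 0.947 FPKM in VEH (SD, n = 6 each; log2 difference -0.81, limma adjusted p = 0.011).

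A pair of genes often used as B-lineage markers were high in leukemias where Cd79a was not, and were picked after their values were seen. Spib, an ETS-family transcription factor of B cells and plasmacytoid dendritic cells, had 438 FPKM in DEX and 265 FPKM in VEH of leukemia 6, and at most 2.82 FPKM in DEX and 11.2 FPKM in VEH of the others. Blk, a Src-family kinase of B cells, had 87.7 FPKM in DEX and 142 FPKM in VEH of leukemia 4, and at most 24.1 FPKM in DEX and 25.6 FPKM in VEH of the others. Cd79a was near the floor in both leukemias.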

How the data were processed

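Total RNA of 12 marrow samples was sequenced as 100-base pairs with a stranded kit, per the labels' protocols. The authors deposited 1 table of FPKM values, rounded to 2 decimals. Bowtie2, RSEM, edgeR and mm10 are named without roles in the submitters' processing notes. Of 38339 genes, 37693 matched GENCODE M21. Genes with at least 1 FPKM in 6 libraries were tested with limma 3.58.1 (R 4.3.3) on log2(FPKM + 1), with leukemia as a block and a trended variance, at a Benjamini-Hochberg adjusted p under 0.05 over all genes tested. An F test on the leukemia terms compared leukemias. Differences are DEX minus VEH. The block was taken because both libraries of a number come from 1 leukemia. With log2 values centred per gene within each treatment, these 2 libraries correlated at 0.551 to 0.817. DEX and VEH libraries of different leukemias correlated at -0.34 to 0.205. The members and lists were chosen with earlier results of these data known; genes were named as members, as list members that passed, or as the 5 most alike. FPKM hold no counts, so depth was estimated from sparse genes of 400 to 700 bases, assuming 150-base fragments. Their most common length-scaled value was taken as that of 1 fragment. Alternatives changed the filter, pseudocount, scaling, block and leukemias.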

Additional observations from a re-analysis of the deposited data

Results flagged for a closer look

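A library far from the other 5 of its treatment was found in 10 of 28 gene and treatment groups checked by Dixon's ratio (above 0.625). The ratio was taken on FPKM and not on their logs. Its usual rate of about 1 flag in 20 holds for normal values, which these were not shown to be. The flags therefore mark libraries to look at and do not measure chance. In VEH marrow, the library of leukemia 2 stood high for Cd79a (9.68 FPKM), Cd79b (18.02 FPKM), Ebf1 (4.53 FPKM), Ms4a1 (7.41 FPKM) and Ighm (431.74 FPKM). It also stood high for the other B-lineage genes Vpreb3 (10.57 FPKM), Cd22 (1.61 FPKM), Blnk (4.06 FPKM) and Igkc (472.85 FPKM). These 9 values come from 1 mouse and are not independent of each other. In DEX marrow, the library of leukemia 1 stood high for Ebf1 (0.84 FPKM). Beside them, the erythroid sum in VEH of leukemia 2 was 1213 FPKM, and its part was not tested.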

How the results depend on the processing

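Of 19 alternatives, 2 chosen after seeing the data, none of those that gave a member a value turned the direction of its difference. Sdc1 stood at -0.71 to -0.60 with any 1 leukemia left out (adjusted p 0.00448 to 0.0189), but 0 members were lower without the replicate block and in leukemias 2, 5 and 6 alone. Against 528 genes higher and 1147 lower, there were 181 and 370 with no filter on low values, 268 and 1844 after rescaling to TPM, 35 and 46 without the block, 188 and 257 in leukemias 2, 5 and 6 alone, and 294 and 558 with the looser filter without leukemia 2. With median-of-ratios scaling there were 683 and 718, and leukemias 1, 3 and 4 alone gave 523 lower. Leaving out 1 leukemia gave 233 to 532 higher and 425 to 1042 lower. TPM moved the median of all genes to -0.16, and Sdc1 stood at -0.75. Genes that differed between leukemias numbered 6321, and 3964 in leukemias 2, 5 and 6 alone. Members that differed numbered 3, and 2 to 3 with 1 leukemia left out, 5 with the looser filter, 6 with it and a pseudocount of 0.1, and 7 with it without leukemia 2. They numbered 2 with no filter and in leukemias 2, 5 and 6 alone. The looser filter tests 7 members in place of 3; other causes were not tested. Members under 1 FPKM are limited by depth, and their differences shrink with a pseudocount of 1.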
